A study of Bos taurus with 13 samples.

Results

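EV-coupled miRNAs of Always positive cows (APCs) were compared with those of transition cows (TCs) while the TCs were in negative energy balance, to see how a positive balance in early lactation is reflected in follicular fluid. The comparison used 5 of the 13 pools of the series, namely 2 APC pools and 3 TC pools labelled Early negative, all from weeks 5 to 6 after calving. A miRNA was included if it was listed for both groups, which held for 269 of the 289 miRNAs listed for either group. Of these 269, 226 had enough reads to be tested. All animals were lactating Holstein-Friesian females without any experimental treatment, and fluid was aspirated by ovum pick-up from large follicles. APCs kept a positive energy balance between weeks 5 and 10, whereas TCs were negative at weeks 5 to 6 and positive at weeks 9 to 10. The APC pools came from 2 cows and the TC pools from 11 cows, and how the cows were divided among the pools is not stated, so a p-value here measures the spread between pools, part of which may be technical.

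Extracellular vesicles (EVs) are membrane-bound particles that cells release and that carry miRNAs, short RNAs which lower the translation and stability of messenger RNAs with matching sites. The vesicles of follicular fluid can come from granulosa and theca cells, the oocyte and its cumulus, and from plasma that crosses the follicle wall. In early lactation the energy going into milk can exceed feed intake, body fat is then mobilised, and the fluid around the oocyte takes up part of the resulting change in blood metabolites. A lower level of a miRNA in such a pool can come from fewer vesicles of 1 source or from less of the miRNA per vesicle, and bulk sequencing cannot tell these apart.

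Levels are given as CPM the reads of a miRNA relative to the size of its library, with the 5 libraries brought to a common scale by TMM factors, which make the bulk of the miRNAs comparable. The libraries held 289973 to 421423 reads over the 269 miRNAs, and 3 reads corresponded to 7.24 to 9.17 CPM. Between 53 and 58 miRNAs had under 10 reads in any 1 library. The gonadal miRNA bta-miR-202 was found in every pool, at 4680 and 2674 CPM in APC replicates 1 and 2 and at 3857, 2762 and 3712 CPM in TC replicates 1, 2 and 3. The groups overlapped for bta-miR-202.

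The pools of 1 group were about as far apart as pools of different groups. As a distance, the root mean square of the log2 differences over the 226 tested miRNAs was used. It was 1.197 between the 2 APC pools and 0.827 to 1.411 among the 3 TC pools. Between an APC and a TC pool it ranged from 0.839 to 1.363, with a mean of 1.054 over 6 pairs against 1.081 over the 3 TC pairs. The most distant pair was TC replicates 2 and 3, in which 94 miRNAs (41.6%) differed by more than 2-fold. By the same count 67 miRNAs (29.6%) differed between the APC pools, and 40 (17.7%) between APC replicate 2 and TC replicate 3. These distances describe miRNAs of 5 libraries, and miRNAs are not replicates.

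**Figure D1:**
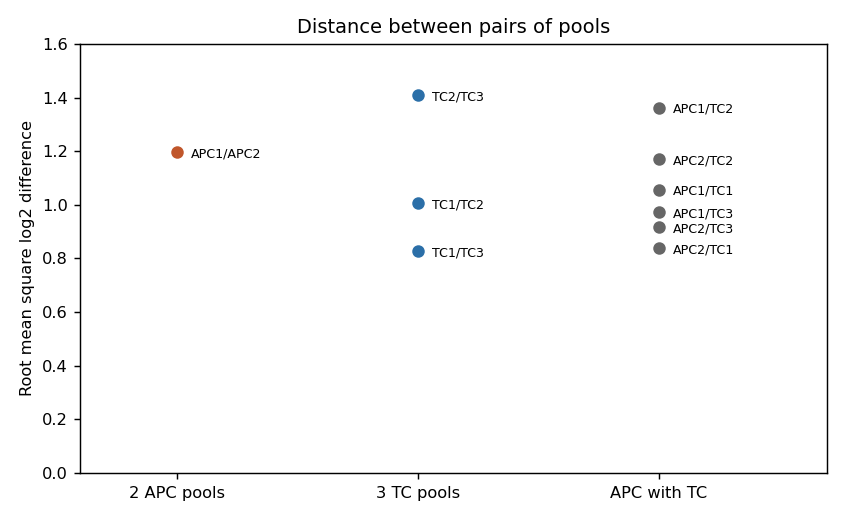
Root mean square log2 difference over 226 miRNAs (vertical axis) for each pair of pools, with the APC pair, the TC pairs and the mixed pairs in separate columns. The APC pair at 1.197 lies inside the range of the mixed pairs, 0.839 to 1.363, and TC replicates 2 and 3 are farthest apart at 1.411.

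No miRNA passed the test between APCs and TCs. A miRNA was to be called at a log2 fold change of at least 1 in either direction, an unadjusted p under 0.05 and a Benjamini-Hochberg adjusted p of at most 0.25, and limma called 0 of 226 (0.0%). The lowest adjusted p was 0.993 (limma), and 6 miRNAs (2.65%) had an unadjusted p under 0.05. The quasi-likelihood test of edgeR on recovered reads called 0 with 4 under 0.05, and DESeq2 called 1, bta-miR-196a, with 6 under 0.05. Values were higher in APCs for 109 miRNAs and lower for 117, and the median log2 fold change was -0.02. Differences of at least 1 on the log2 scale were seen for 21 miRNAs, 11 higher and 10 lower in APCs.

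The 5 pools left room for sizeable differences. The median standard error of a log2 fold change was 0.50, and the 95% interval reached 1.2 to either side at the median. The interval stayed within 2-fold for 11 miRNAs (4.87%) and within 4-fold for 167 (73.9%). Those bounded within 2-fold were bta-miR-25, bta-let-7f, bta-miR-128, bta-miR-16a, bta-miR-152, bta-miR-151-3p, bta-miR-181a, bta-miR-660, bta-miR-425-5p, bta-miR-99b and bta-miR-3432, and except for bta-miR-25 they are named here only to complete this count. Of them bta-miR-25, of a cluster related to miR-17-92, was at 24334 and 21937 CPM in the APC pools and at 22625, 26754 and 22710 CPM in the TC pools. These values overlapped, and the difference of -0.05 had a 95% interval of -0.99 to 0.88.

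**Figure D2:**
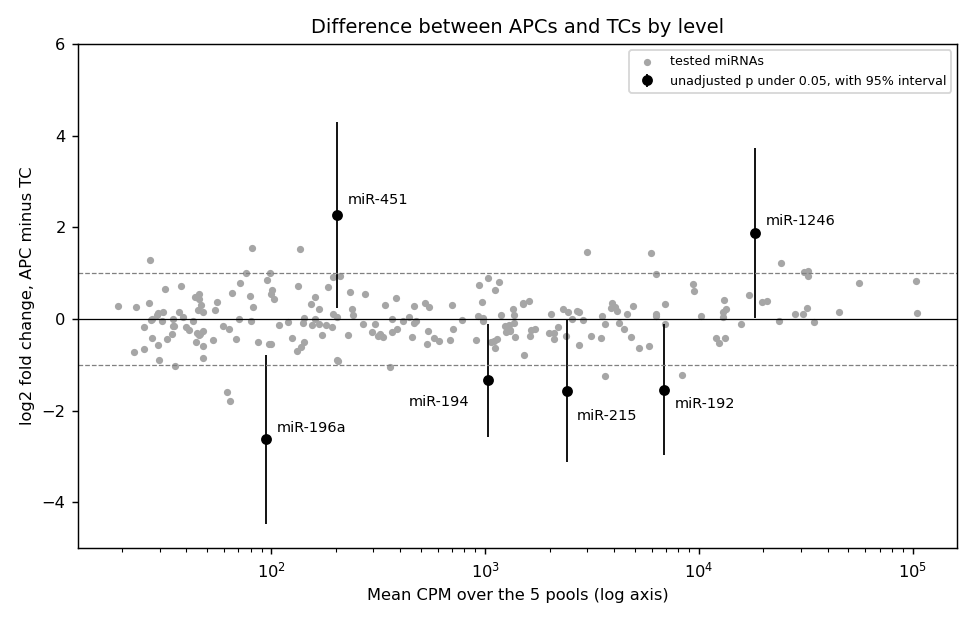
Log2 fold change of APCs minus TCs (vertical axis) against mean CPM over the 5 pools (log axis) for 226 miRNAs, with the 6 miRNAs of unadjusted p under 0.05 in black with their 95% intervals and dashed lines at 1 and -1. Of the 6, bta-miR-451 and bta-miR-1246 lie above 0 and bta-miR-196a, bta-miR-192, bta-miR-194 and bta-miR-215 below 0.

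In 34 miRNAs the values of the 2 groups did not overlap. Both APC pools were above all TC pools in 17 (7.52%) and below all TC pools in 17 (7.52%). The even split depended on the scaling. When libraries were scaled to their total reads, the median log2 fold change moved to -0.28, 4 miRNAs were above and 31 below. All 4 of those above, and 16 of those below, were also in the sets under TMM. Among the 34, the log2 fold change was at least 1 in 6 miRNAs and at most -1 in 7. The smallest p an exact permutation test of 2 against 3 pools can give is 0.1, so that test cannot reach 0.05 for a single miRNA. There are 10 such splits, so without any group difference a share of 0.1 would on average lie above, and 0.1 below. The 7.52% found on each side was not larger.

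The miRNAs of the liver and gut list, bta-miR-122, bta-miR-192, bta-miR-194 and bta-miR-215, had lower mean values in APCs throughout. In 3 of the 4 both APC pools were below all TC pools, against 7.52% of all tested miRNAs, and the same 3 were under an unadjusted p of 0.05, against 2.65% of all, while the median over the list was -1.44 against -0.02 over all tested miRNAs. bta-miR-192 and bta-miR-215 are closely related miRNAs of gut, kidney and liver epithelium and of the p53 response, and in RefSeq each is encoded next to a copy of the gene for bta-miR-194. These 3 are therefore not independent of each other. The list was also chosen with earlier results of these data known, so its shares only describe it and do not test it. Values of bta-miR-192 were 1607 and 5657 CPM in the APC pools and 12126, 7343 and 7675 CPM in the TC pools. APC replicate 1 was far below the other 4, and APC replicate 2 was just below the TC range. The log2 fold change was -1.54 ± 0.60 (SE), with an interval of -2.98 to -0.11 and an unadjusted p of 0.0385 (limma, adjusted p 0.993).

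For bta-miR-215 the values were 505 and 2099 CPM in APCs and 4114, 2281 and 3116 CPM in TCs. Again APC replicate 1 was lowest and APC replicate 2 lay close under TC replicate 2, with a log2 fold change of -1.57 ± 0.64 (SE). bta-miR-194 was at 393 and 629 CPM in APCs and at 2210, 944 and 976 CPM in TCs. Here both APC pools were clearly under the TC pools and TC replicate 1 stood above all others, with a log2 fold change of -1.34 ± 0.51 (SE). The exact permutation p was 0.1 for each of the 3. The fourth member, bta-miR-122, is the abundant miRNA of hepatocytes, where it supports lipid and cholesterol metabolism. It was at 560 and 5253 CPM in APCs and at 3757, 4847 and 3724 CPM in TCs. Only APC replicate 1 was low, APC replicate 2 was the highest of the 5, and the difference of -1.24 ± 0.88 (SE) had an unadjusted p of 0.20 (limma, adjusted p 0.993).

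APC replicate 1 weighed heavily in these differences. Without it, the log2 fold change of bta-miR-192 was -0.64, that of bta-miR-215 -0.55 and that of bta-miR-194 -1.01, and bta-miR-122 turned to 0.36. Without APC replicate 2, 4 miRNAs were called as lower, namely bta-miR-122 at -2.85, bta-miR-192 at -2.45, bta-miR-215 at -2.60 and bta-miR-375 at -3.04 (limma, lowest adjusted p 0.162). This count rests on APC replicate 1 alone. On the scale of all 13 libraries, pools labelled Always negative overlapped the APC pools in every member of the liver and gut list. In these pools bta-miR-122 was at 328.8 to 2926 CPM, against 631.3 to 5858 CPM in APCs. bta-miR-192 was at 2975 to 7037 against 1812 to 6309 CPM, and bta-miR-215 at 1097 to 3033 against 569.5 to 2341 CPM. For bta-miR-194 the values were 562.6 to 1259 against 442.6 to 701.4 CPM. Low values were thus not particular to APCs.

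Among miRNAs encoded in the HOX clusters, which pattern the body axis, bta-miR-196a and bta-miR-196b were both lower in all APC pools than in any TC pool. Of all tested miRNAs, 7.52% were below in this way. bta-miR-196a was at 21.3 and 8.99 CPM in APCs, or 7 and 3 reads, and at 306, 67.6 and 69.1 CPM in TCs, or 100, 28 and 24 reads. The APC pools were clearly under the TC pools, and TC replicate 1 was more than 4-fold above the other TC pools. The log2 fold change of -2.63 ± 0.77 (SE; interval -4.47 to -0.79) was the lowest of all tested miRNAs, with an unadjusted p of 0.012 (limma, adjusted p 0.993; exact permutation p 0.1). It was -1.93 without TC replicate 1 and -1.98 with a pseudocount of 20 in place of 5. From the summed reads the ratio of APCs to TCs was 0.108 with an exact interval of 0.0508 to 0.204 that covers counting error only. DESeq2 called it at an adjusted p of 0.166, and its adjusted p ran from 0.166 to 0.996 over the alternatives.

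bta-miR-196b differs from bta-miR-196a in few bases, so that reads may be split between them. It was at 21.3 and 17.97 CPM in APCs, or 7 and 6 reads. In TCs it was at 190, 48.3 and 34.6 CPM, or 62, 20 and 12 reads. TC replicate 1 was again the highest, and the log2 fold change of -1.60 ± 0.74 (SE) was -0.90 without it. The abundant HOX-encoded miRNAs did not share this order. bta-miR-10b was at 9020 and 6634 CPM in APCs and at 7553, 6718 and 4665 CPM in TCs, and bta-miR-10a at 791 and 5912 CPM in APCs and at 2182, 4413 and 1100 CPM in TCs. Both overlapped, with log2 fold changes of 0.32 ± 0.40 and -0.02 ± 0.94 (SE). Over the 4 members 1 was higher and 3 lower, with a median of -0.81. On the scale of all 13 libraries, bta-miR-196a ranged from 10.02 to 24.02 CPM in APCs and from 55.1 to 343 CPM over the other 4 groups.

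Both red-cell miRNAs tested had higher mean values in APCs, and 1 of the 2 was above all TC pools in both APC pools, against 7.52% of all tested miRNAs. bta-miR-451, which is made without Dicer and accumulates in maturing erythrocytes, was at 682 and 129 CPM in APCs and at 33.6, 45.9 and 121 CPM in TCs. APC replicate 1 stood far above the rest, whereas APC replicate 2 and TC replicate 3 were nearly equal. The log2 fold change was 2.27 ± 0.85 (SE; interval 0.24 to 4.30), with an unadjusted p of 0.033 (limma, adjusted p 0.993) and an exact permutation p of 0.2. It was 1.09 without APC replicate 1 and 3.46 without APC replicate 2, and scaled to total reads APC replicate 2 (102) fell below TC replicate 3 (116). bta-miR-486, also abundant in red cells and in muscle, was at 7243 and 1788 CPM in APCs and at 636, 753 and 4562 CPM in TCs. These overlapped, and the log2 fold change of 1.47 ± 0.99 (SE) was 0.46 without APC replicate 1 and 2.47 without APC replicate 2.

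Of the 3 red-cell markers, bta-miR-144 was not among the 269 miRNAs, and the other 2 summed to 7925 and 1917 CPM in APCs and to 669, 799 and 4682 CPM in TCs. APC replicate 1 and TC replicate 3 were thus the pools with most red-cell miRNA, and the part of blood in the differences described here was not tested. Fluid contaminated with blood had been set aside before pooling, as stated in the methods of the study. On the scale of all 13 libraries, bta-miR-451 reached 667 CPM in TCs at weeks 9 to 10 and 371 CPM in heifers, against 769 CPM in APCs. The leukocyte miRNAs gave a median of 0.27, or 0.00 when scaled to total reads, with 3 of 5 higher and 2 lower. Of these bta-miR-223, of granulocytes, and bta-miR-155, of activated lymphocytes, were above all TC pools in both APC pools, at log2 fold changes of 0.60 and 0.45, and are named after their values were seen. Of all tested miRNAs, 7.52% were above in this way. Scaled to total reads, bta-miR-155 overlapped. bta-miR-142-5p and bta-miR-150 overlapped, at -0.25 and 0.27. Summed leukocyte miRNAs were at 1902 and 3561 CPM in APCs and between 2346 and 2569 CPM in TCs.

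The other miRNA with higher values in APCs and an unadjusted p under 0.05 was bta-miR-1246, a sequence that also matches fragments of the spliceosomal RNA U2 in other mammals. It was at 25813 and 34315 CPM in APCs and at 9237, 2976 and 19052 CPM in TCs. Both APC pools were above every TC pool, and the TC pools spread over 6.401-fold with TC replicate 2 lowest. The log2 fold change was 1.88 ± 0.77 (SE; interval 0.03 to 3.74), with an unadjusted p of 0.048 (limma, adjusted p 0.993; exact permutation p 0.2). Without TC replicate 2 it was 1.17. On the scale of all 13 libraries the APC pools, at 29100 and 38270 CPM, were above all others, of which the highest was a TC pool at 22720 CPM.

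Other miRNAs that bypass a step of the usual processing were of both directions. bta-miR-320a, cut without Drosha, was at 120225 and 142429 CPM in APCs and at 81110, 35099 and 141614 CPM in TCs. TC replicate 3 was level with the APCs, and the difference of 0.82 ± 0.70 (SE) was within the spread of the TC pools. bta-miR-484, named after its values were seen, was lower in both APC pools, at 97.4 and 168 CPM against 183.4, 239 and 331.2 CPM. Over the list 3 of 5 tested miRNAs were higher and 2 lower, with a median of 0.75.

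**Figure D3:**
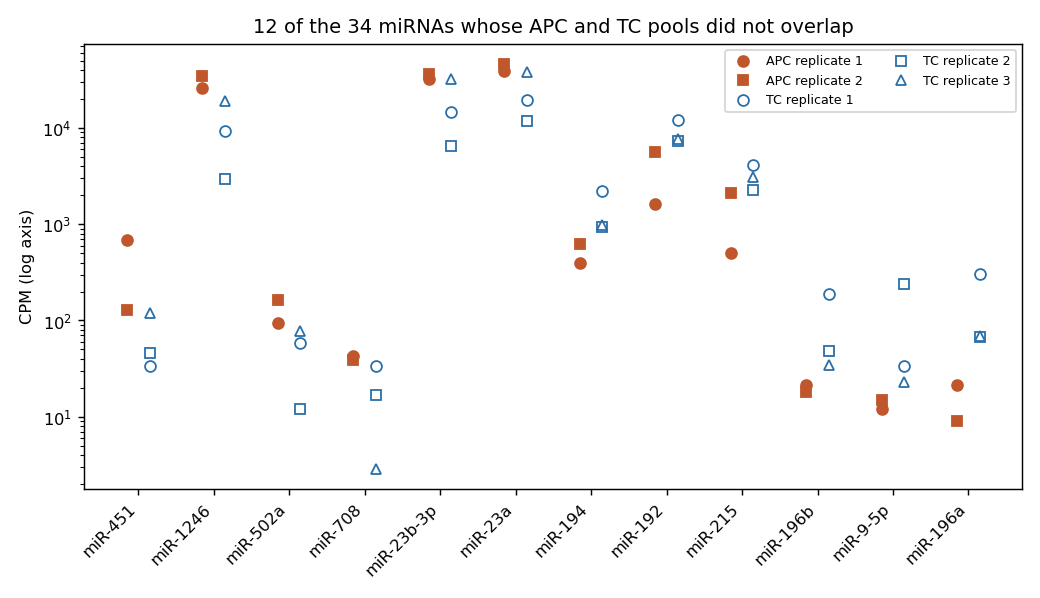
CPM in each pool (log axis) for the 6 miRNAs with the highest and the 6 with the lowest log2 fold change among the 34 whose groups did not overlap, with APC pools as filled and TC pools as open symbols. TC replicate 1 is highest in bta-miR-196a at 306 CPM, and APC replicate 2 and TC replicate 3 nearly touch in bta-miR-451 at 129 and 121 CPM.

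In the remaining miRNAs with separate groups and large differences, 1 TC pool lay close to the APCs or far from the other TC pools. bta-miR-23a and bta-miR-23b-3p, of the paralogous clusters that also encode miR-24 and miR-27 and act in granulosa steroid synthesis and apoptosis, had log2 fold changes of 1.03 ± 0.59 and 1.22 ± 0.69 (SE). bta-miR-23a was at 38819 and 45809 CPM in APCs and at 19691, 11696 and 38401 CPM in TCs, and bta-miR-23b-3p at 31972 and 35935 CPM in APCs and at 14687, 6513 and 31954 CPM in TCs. In both, TC replicate 3 was almost equal to APC replicate 1, and scaled to total reads the groups overlapped. Without TC replicate 2 the log2 fold changes were 0.62 and 0.65. Of the other tested members of the clusters, bta-miR-24-3p was at -0.53, bta-miR-27a-3p at 0.06 and bta-miR-27b, below all TC pools in both APC pools, at -0.42. Of these, the miR-27 members are named to complete the list, in which 3 of 5 tested miRNAs were higher and 2 lower. Both APC pools were above all TC pools in 2 of the 5 and below in 1, against 7.52% of all tested miRNAs in each direction.

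bta-miR-502a, from an X-linked cluster with bta-miR-660, was at 94.3 and 165 CPM in APCs and at 58.1, 12.1 and 77.8 CPM in TCs. TC replicate 2 was lowest, and the log2 fold change of 1.54 ± 0.76 (SE) was 0.84 without it. bta-miR-708, encoded in an intron of a teneurin gene, was at 42.6 and 38.9 CPM in APCs and at 33.6, 16.9 and 2.88 CPM in TCs, the last being a single read. The ratio of the summed reads, 27 in APCs and 19 in TCs, was 2.33 with an exact counting interval of 1.25 to 4.44. The log2 fold change of 1.28 ± 0.71 (SE) was 0.62 without TC replicate 3, and scaled to total reads the groups overlapped. bta-miR-9-5p, best known from neural progenitors, was at 12.2 and 14.97 CPM in APCs, or 4 and 5 reads. In TCs it was at 33.6, 237 and 23.04 CPM, or 11, 98 and 8 reads. TC replicate 2 alone was high, and the log2 fold change was -1.79 ± 0.94 (SE; exact permutation p 0.3). Without TC replicate 1 or 2, bta-miR-9-5p had too few reads to be tested.

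TC replicate 2 was the lowest of the 5 pools in 7 of the 11 miRNAs with a log2 fold change of at least 1. Among the 36 miRNAs whose TC pools spanned at least 4-fold, TC replicate 2 was the lowest TC pool in 21 and the highest in 11. Without TC replicate 2, limma called 0 miRNAs and 6 had an unadjusted p under 0.05. That number was 20 without TC replicate 3, 17 without APC replicate 2, 3 without APC replicate 1 and 2 without TC replicate 1.

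The range between pools of 1 group was larger than the difference between groups for most miRNAs. This held for the 2 APC pools in 69.5% of the 226 miRNAs and for the 3 TC pools in 86.3%. A range of single pools tends to exceed a difference of means, so these shares describe the spread and do not test the groups. The median log2 range was 0.58 in APCs and 0.94 in TCs, with 2 pools in the former and 3 in the latter, against a median absolute log2 fold change of 0.34. The APC pools differed by at least 4-fold in 20 miRNAs, with replicate 1 lower in 14 and higher in 6.

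bta-miR-132, which gonadotropins induce in granulosa cells, had the largest difference between the APC pools. It was at 4321 and 83.9 CPM in APCs, 51.5-fold apart, and at 245, 174 and 999 CPM in TCs. The TC values lay between the 2 APC values, and the log2 fold change of 0.80 ± 1.601 (SE) was -2.0 without APC replicate 1 and 3.61 without APC replicate 2. Any direction for this miRNA is therefore set by 1 pool.

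The miR-34 and miR-449 family shares a seed and is abundant in ciliated epithelium such as the oviduct, and its miR-34 members are targets of p53. All 3 tested members were lower in APCs, but never without overlap. bta-miR-34c was at 39.6 and 764 CPM in APCs and at 70.3, 6643 and 60.5 CPM in TCs. TC replicate 2 was far above all other pools, and APC replicate 2 was the second highest. bta-miR-449a was at 18.3 and 291 CPM in APCs and at 76.4, 1364 and 40.3 CPM in TCs, with the same 2 pools on top. The log2 fold changes were -0.79 ± 2.21 and -1.05 ± 1.66 (SE). That of bta-miR-34c was 1.40 without TC replicate 2 and 1.26 without APC replicate 1, and that of bta-miR-449a 0.45 and 0.78. bta-miR-34a, widely expressed, was more even at 441 and 683 CPM in APCs and at 853, 775 and 659.5 CPM in TCs.

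The same pools were high in epithelial miRNAs. Summed over the 10 listed members, these were at 5590 and 28113 CPM in APCs and at 13385, 28395 and 5446 CPM in TCs. bta-miR-200a, which keeps epithelial identity by lowering ZEB factors, was at 1987 and 12504 CPM in APCs and at 5701, 12388 and 2240 CPM in TCs. bta-miR-141, of the same family, was at 237 and 3384 CPM in APCs and at 1247, 2752 and 464 CPM in TCs. In both, APC replicate 2 and TC replicate 2 were high and APC replicate 1 low, and the groups overlapped. The list had 5 members higher and 4 lower in APCs, with a median of 0.02. The median was 1.21 without APC replicate 1, -0.93 without APC replicate 2, 0.68 without TC replicate 2 and -0.69 without TC replicate 3.

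bta-miR-375, of pancreatic islets and other secretory epithelia, was at 1059 and 13070 CPM in APCs and at 10802, 11573 and 5313 CPM in TCs. APC replicate 1 alone was low, and the log2 fold change of -1.23 ± 1.02 (SE) was 0.58 without it. bta-miR-2346 was at 119 and 5.99 CPM in APCs, the latter being 2 reads, and at 42.8, 65.2 and 34.6 CPM in TCs. Here APC replicate 1 was high instead. Those most variable among the TC pools also included bta-miR-184, an epithelial miRNA, at 55.0, 1151 and 23.04 CPM, and bta-miR-450a, of the miR-424 and miR-542 cluster, at 85.6, 12.1 and 466.5 CPM. In APCs they were at 194.8 and 47.9 CPM and at 82.2 and 329.4 CPM. bta-miR-873 was at 4126, 893 and 7983 CPM in TCs and at 7626 and 9236 CPM in APCs, so that TC replicate 2 was low. All 3 overlapped between the groups.

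**Figure D4:**
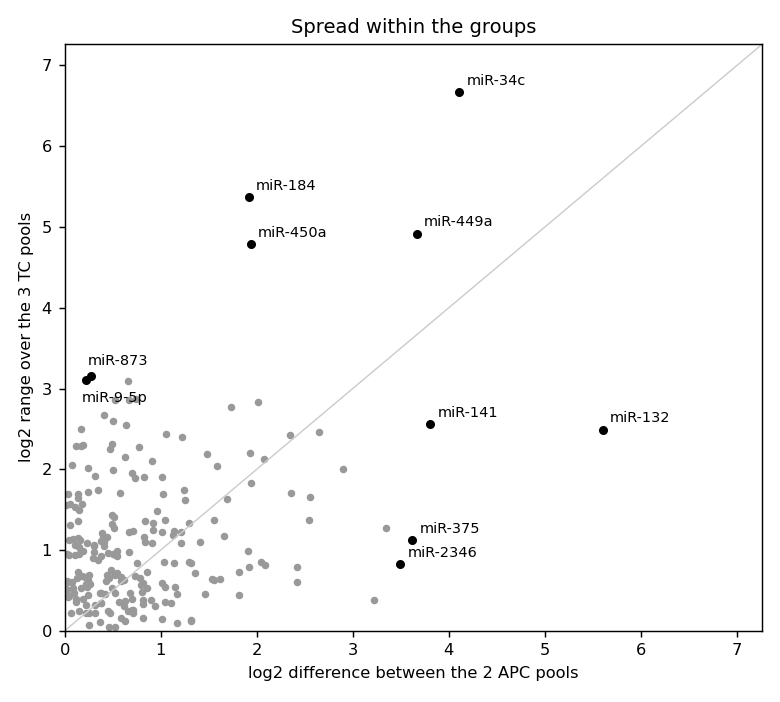
Log2 range over the 3 TC pools (vertical axis) against the log2 difference between the 2 APC pools (horizontal axis) for 226 miRNAs, with the grey line marking equal values and the most variable miRNAs in black. bta-miR-132 lies farthest right at 51.5-fold, and bta-miR-34c is highest, with its TC pools between 60.5 and 6643 CPM.

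The most abundant miRNAs gave no separation apart from bta-miR-23a and bta-miR-423-5p. bta-miR-21-5p, an inhibitor of granulosa cell apoptosis, was at 58436 and 171599 CPM in APCs and at 92535, 146877 and 56958 CPM in TCs. bta-miR-423-5p was at 75974 and 68418 CPM in APCs and at 51265, 22570 and 63444 CPM in TCs. For the latter both APC pools were above all TC pools, with a log2 fold change of 0.78 ± 0.58 (SE), but scaled to total reads the groups overlapped. bta-let-7b, bta-miR-92a, bta-miR-143 and bta-miR-16b had log2 fold changes of 0.16, -0.06, 0.24 and 0.12, all smaller than their standard errors, which were 0.44 to 0.50. Scaled to total reads, bta-let-7b, bta-miR-143, bta-miR-16b and bta-miR-21-5p were lower in APCs instead.

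Of the 11 tested miRNAs with a known role in energy metabolism, 5 were higher and 6 lower in APCs. None had an unadjusted p under 0.05 (limma), against 2.65% of all tested miRNAs. bta-miR-107 and bta-miR-103, which lower insulin sensitivity through caveolin, were at 31449 and 49640 CPM and at 30816 and 48855 CPM in the APC pools. In the TC pools bta-miR-107 was at 20421, 6284 and 53589 CPM and bta-miR-103 at 20763, 7353 and 53307 CPM. TC replicate 2 was lowest and TC replicate 3 highest in both, and the log2 fold changes were 1.05 ± 0.89 and 0.95 ± 0.83 (SE). They were 0.26 and 0.22 without TC replicate 2, and 1.76 and 1.61 without TC replicate 3. bta-miR-378, from an intron of the gene of the coactivator PGC-1beta, was below all TC pools in both APC pools at -0.39. bta-miR-26a was above all TC pools at 0.42, and both are named to complete the count of the list. Of all tested miRNAs, 7.52% were below and 7.52% above in this way. Scaled to total reads, bta-miR-26a overlapped. The median was -0.30, and without APC replicate 1 it was 0.31.

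The miR-30 family, which is highly expressed in epithelium and restrains autophagy genes, was lower in APCs in all 6 members, with a median of -0.61. bta-miR-30a-5p was at 2879 and 6493 CPM in APCs and at 5358, 7353 and 6972 CPM in TCs. bta-miR-30d was at 2690 and 5570 CPM in APCs and at 5257, 6040 and 6756 CPM in TCs. In both, APC replicate 1 was the lowest pool and APC replicate 2 lay within the TC range. Without overlap were bta-miR-30b-5p, at -1.02 ± 0.57 (SE), and bta-miR-30c, at -0.51, which are named to complete the count, and 7.52% of all tested miRNAs were below in this way. No member had an unadjusted p under 0.05, against 2.65% of all, and without APC replicate 1 the median was -0.05.

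The broader families had members in both directions. The let-7 family, which marks differentiated cells, had 6 members higher and 3 lower with a median of 0.11, and the miR-17-92 cluster and its paralogs, which favour proliferation, had 7 higher and 3 lower with a median of 0.14. Both medians were negative when scaled to total reads, at -0.17 and -0.11. The miR-103, miR-107 and miR-15/16 seed group had 6 higher and 2 lower (median 0.17, or -0.11 scaled to total reads), and miR-130, miR-148 and miR-152 had 3 higher and 3 lower (median 0.09, or -0.18). The imprinted DLK1-DIO3 cluster, expressed in placenta and muscle, had 1 higher and 6 lower at a median of -0.17, and the miR-424 and miR-542 cluster, which is expressed in bovine granulosa, 3 higher and 4 lower at -0.22, with members from -0.93 to 0.92. The ruminant-lineage families miR-2284 and miR-2285 had 6 higher and 4 lower at 0.32, and reads of their near-identical copies may be split among members. Scaled to total reads, the median was -0.41 for the DLK1-DIO3 cluster, -0.49 for the miR-424 and miR-542 cluster and 0.08 for the ruminant-lineage families.

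Markers of other cell types gave little separation apart from bta-miR-126-3p. The striated muscle miRNAs had a median of 0.00 over 3 members, and bta-miR-1 was at 292 and 234 CPM in APCs and at 226, 239 and 204.5 CPM in TCs. The endothelial bta-miR-126-3p was at 1144 and 1258 CPM in APCs and at 1003, 801 and 449.2 CPM in TCs, and its other arm bta-miR-126-5p at 274 and 737 CPM in APCs and at 654.1, 717 and 331.2 CPM in TCs. For bta-miR-126-3p both APC pools were above all TC pools, as in 7.52% of all tested miRNAs, whereas bta-miR-126-5p overlapped. The 2 arms thus differed in direction, at 0.75 and -0.26, and scaled to total reads bta-miR-126-3p overlapped too. The gonadal and gonadotropin list had both members above 0, at a median of 0.43 set by bta-miR-132 and 0.05 for bta-miR-202, which was -0.22 when scaled to total reads. With that scaling the medians of the striated muscle, endothelial, epithelial and miR-23, miR-24 and miR-27 lists were negative as well, at -0.23, -0.03, -0.26 and -0.21.

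**Figure D5:**
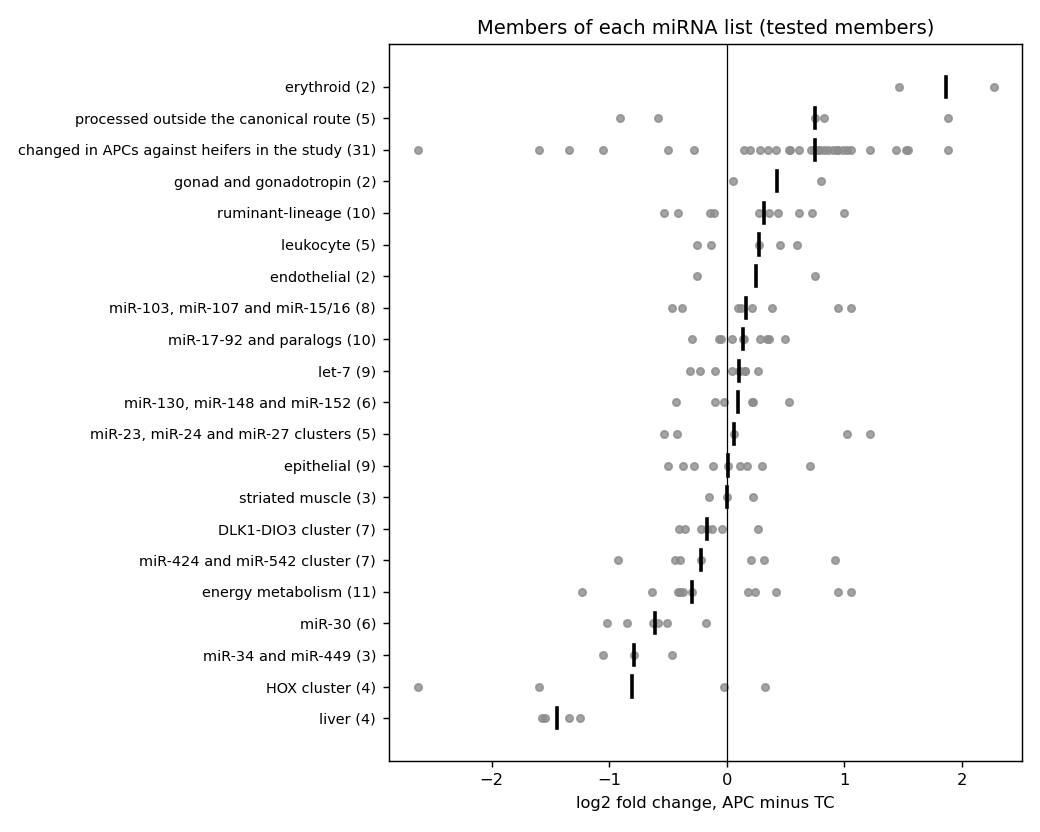
Log2 fold change of APCs minus TCs (horizontal axis) of the tested members of 21 miRNA lists, 1 row per list with the number of tested members in parentheses, with grey points for members and a black bar for the median. The liver and gut list has the lowest median at -1.44 and the red-cell list the highest at 1.87.

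Of the miRNAs that differed between APCs and heifers in the study, 31 were tested here, and 25 of them were higher and 6 lower in APCs than in TCs, with a median of 0.75 against -0.02 over all tested miRNAs. This list was chosen on these same APC pools, so its direction is not independent evidence. Both APC pools were above all TC pools in 7 of the 31 and below in 3, against 7.52% of all tested miRNAs in either direction. The 3 below, a share near that of all miRNAs, were bta-miR-196a, bta-miR-196b and bta-miR-194. bta-miR-22-3p, an inhibitor of oestrogen signalling, was in this list at a log2 fold change of 0.99 ± 0.68 (SE) and is named after its values were seen. Its groups overlapped, with TC replicate 3 at 8792 CPM above APC replicate 1 at 6878 CPM. bta-miR-874, which was named for another pair of cow groups, was at 152.2 and 258 CPM in APCs and at 76.4, 19.3 and 173 CPM in TCs. Its groups overlapped at TC replicate 3. bta-miR-592 was nearly level, at 33.5 and 26.95 CPM in APCs and at 21.4, 28.97 and 34.6 CPM in TCs. bta-miR-2285z was not tested for its low reads, and stood at 27.4 and 32.9 CPM in APCs and at 15.3, 7.24 and 14.4 CPM in TCs.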

How the data were processed

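Small RNA of follicular fluid EVs was sequenced from pools of cows after ultracentrifugation, with libraries of the QIAseq miRNA kit. The authors trimmed adaptors with Cutadapt 1.11, mapped the reads with Bowtie2 2.2.2 to UMD 3.1, annotated miRNAs with miRBase release 20 and normalized with TMM. The deposited signal of each pool is CPM after TMM normalization, not logged, for the miRNAs listed for its group. These files were scaled separately, so read numbers were worked back from the spacing of the low values, and every value of the 5 pools came out whole within 0.1 read. The 269 miRNAs present in the lists of both groups were scaled together with TMM factors (edgeR 4.0.16, R 4.3.3). miRNAs were filtered with filterByExpr (minimum count 10, minimum total count 15) and log2(CPM + 5) was tested with limma 3.58.1 with a mean-variance trend, on the 2 APC and 3 TC pools without covariates. Fold changes are on this log2(CPM + 5) scale, which understates those of low miRNAs. The adjustment over 226 miRNAs was that of Benjamini-Hochberg, and the thresholds were those stated with the results. Groups and replicate numbers came from the labels. Permutation tests were exact and two-sided. Intervals from reads cover counting error only.

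The miRNAs named were the 10 with the highest mean CPM, those called or with an unadjusted p under 0.05, the 6 of largest change in each direction without overlap, the 6 most variable within each group, those the study names for comparisons of cow groups, and the 2 most abundant of each list together with its members under the earlier points. A few others are named where a count is completed, as stated there. Members and lists were chosen with earlier results of these data known. Alternatives were other pseudocounts (1 and 20), filters, scalings and models, edgeR, DESeq2 1.42.0 on the recovered reads, a replicate block and leaving out each pool. The recovery of reads and the limma procedure were tested on simulated data. RefSeq names matched 269 of 269 miRNAs and were used for which genes neighbour each other. The number of columns of other samples left unused was 0. Replicate numbers do not name shared animals. The study gives a day of RNA measurement for all 5 pools but APC replicate 2, with replicate 1 of each group on a day of its own, so no within-day comparison could be made.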

Additional observations from a re-analysis of the deposited data

Results flagged for a closer look

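Of the miRNAs listed for 1 of the 2 groups, and thus outside the comparison, 4 had more than 3 reads, the number taken as the lowest visible, in every pool of that group. bta-miR-1291 had 5 and 5 reads and bta-miR-135a 5 and 5 reads in the APC pools. bta-miR-20b had 5, 4 and 4 reads and bta-miR-500 5, 4 and 6 reads in the TC pools. Absence from the list of a group was not taken as 0 reads, so no difference between the groups was computed.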

How the results depend on the processing

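Under the 11 alternatives that kept all pools and the 5 that left out 1 pool, limma, edgeR or DESeq2 called 0 miRNAs in all but 2, namely DESeq2 (1) and the fit without APC replicate 2 (4), so that leaving out a pool gave 0 to 4 calls. The causes of these changes were not tested. bta-miR-196a, bta-miR-451, bta-miR-192, bta-miR-194, bta-miR-215 and bta-miR-1246 kept their direction in every alternative that tested them, but their unadjusted p stayed under 0.05 in 14 of 15, 12 of 16, 12 of 16, 13 of 16, 10 of 16 and 7 of 16 alternatives, in this order. Of the 58 named and tested miRNAs, 27 kept their direction throughout and 31 did not. Signs turned under total count scaling for miR-21-5p (-0.15), let-7b (-0.12), miR-143 (-0.03), miR-16b (-0.16), miR-592 (-0.13), miR-200b (-0.10), miR-1 (-0.04), miR-202 (-0.22), let-7a-5p (-0.17) and miR-148a (-0.06), under sample weights for miR-34c (0.01), miR-184 (0.08) and miR-202 (-0.02), under DESeq2 for miR-2346 (0.40), miR-141 (0.26), miR-200a (0.08), miR-133a (0.30) and miR-10a (0.36), and under edgeR for miR-2346 (0.38), miR-141 (0.28), miR-200a (0.10), miR-133a (0.28) and miR-10a (0.39). With the replicate number as a block, 0 miRNAs were called by limma with 12 at an unadjusted p under 0.05, TC replicate 3 dropped out of the contrast, and signs turned for miR-21-5p (-0.22), let-7b (-0.11), miR-92a (0.10), miR-200b (-0.38), miR-424-5p (0.11), miR-450b (0.02) and let-7a-5p (-0.17). Same-numbered pools correlated at -0.083 and 0.084 in their deviations from the group means, so the pools share only a number. Leaving out 1 pool turned 28 signs, with the log2 fold changes ranging as follows: let-7a-5p -0.21 to 0.37, let-7b -0.16 to 0.44, miR-10a -1.47 to 1.43, miR-122 -2.85 to 0.36, miR-126-5p -0.96 to 0.45, miR-130a -0.12 to 1.18, miR-132 -2.0 to 3.61, miR-133a -1.36 to 1.07, miR-141 -2.28 to 1.53, miR-142-5p -0.91 to 0.41, miR-148a -0.18 to 0.60, miR-150 -0.13 to 0.68, miR-16b -0.29 to 0.53, miR-184 -1.40 to 1.32, miR-200a -1.44 to 1.21, miR-200b -0.86 to 1.21, miR-202 -0.35 to 0.46, miR-21-5p -0.65 to 0.90, miR-2346 -2.21 to 1.28, miR-25 -0.13 to 0.03, miR-34c -2.85 to 1.40, miR-375 -3.04 to 0.58, miR-424-5p -0.91 to 0.07, miR-432 -0.99 to 0.55, miR-449a -2.90 to 0.78, miR-450a -0.28 to 2.08, miR-592 -0.06 to 0.23 and miR-92a -0.50 to 0.37. A lone pool left in APCs is assumed to vary like the TCs. The HOX cluster median was 0.15 with at least 10 reads in every pool. This filter removed bta-miR-196a and bta-miR-196b, so that median covers bta-miR-10a and bta-miR-10b alone. At this depth, miRNAs near 3 reads per pool, such as bta-miR-196a in APCs, rest on counts too low for a precise fold change.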

Other observations

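In all, 4 miRNAs were listed for APCs and not for TCs, and 16 for TCs and not for APCs. Among the latter, bta-miR-34b, which is encoded beside bta-miR-34c, had 3, 169 and 1 reads in TC replicates 1, 2 and 3, so that the pool highest in bta-miR-34c was also the highest in its neighbour. In the same order of pools, bta-miR-181c had 3, 10 and 0 reads.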
